A study of Ictalurus furcatus with 6 samples.

Results

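The rows of AP-1 and stress immediate-early transcription factor genes were followed in the sperm transcriptome of blue catfish (*Ictalurus furcatus*). They were found by name in the deposited expression table, as every row named *jun*, *junb*, *jund*, *fos*, *fosl1*, *fosl2*, *atf3*, *atf4*, *egr1* or *ier2*, with or without a final a or b and in any case. The rule gave 14 of the 27416 rows. No row carried the name *jund*, and the other 9 names had at least 1 row each. The rows are *jun* (AUIFUG00000012325), *JUN* (AUIFUG00000013112), *junb* (AUIFUG00000021554), a second *junb* (AUIFUG00000024288), *FOS* (AUIFUG00000035269), *fos* (AUIFUG00000007522), *fosb* (AUIFUG00000012056), *fosl1* (AUIFUG00000031412), *fosl1a* (AUIFUG00000021626), *fosl2* (AUIFUG00000010121), *atf3* (AUIFUG00000001751), *atf4* (AUIFUG00000016946), *egr1* (AUIFUG00000015164) and *ier2a* (AUIFUG00000012957). *fosb* met the rule as *fos* with a final b, although it is commonly the name of a separate FOS family gene. The names of *FOS* and *fosl1* came from the eggNOG annotation and the other 12 from channel catfish homology. RefSeq lists *jun*, *jund*, *fosaa*, *fosab*, *junba* and *junbb* as separate genes of this species. Rows that share a name are called copies here. Which of these genes a copy named *jun*, *JUN*, *fos*, *FOS* or *junb* stands for was not settled.

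Testicular sperm of mature males of the D&B strain was studied in 2 groups. Fresh-frozen samples F2 and F3 were flash-frozen in liquid nitrogen, and cryopreserved samples C2, C3 and C5 were diluted in Hank's balanced salt solution, given methanol and frozen in straws at a controlled rate. All samples were thawed in the same way before RNA extraction, and the number in a name is the male, so that male 5 has no fresh-frozen sample here. The sperm came out of dissected testes, so other testicular cells can be present in a sample. In the study, the cryopreserved samples were aliquots of sperm extracted from the testes tissue left after the fresh-frozen samples were taken. The groups may therefore differ in this step as well as in freezing, and these cannot be told apart here.

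AP-1 is a pair of basic leucine zipper (bZIP) proteins. JUN family proteins can pair with each other or with FOS family proteins, whereas FOS family proteins bind DNA well only with a JUN partner. In somatic cells of vertebrates, *jun*, *fos*, *atf3*, *egr1* and *ier2* are switched on within minutes of growth signals or stress, without new protein synthesis, and their mRNAs are short-lived. ATF4, another bZIP factor, is controlled mainly at translation and carries the integrated stress response. Mature vertebrate sperm are generally held to transcribe little or nothing, so an mRNA found in them is mostly one made earlier in spermatogenesis or one from another cell.

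Values are CPM, read counts scaled to the library total without division by gene length, so levels are compared between samples and not between genes. The libraries were not alike. The median row had between 15.6 and 15.7 CPM in F2 and F3, but 9.55 in C2, 15.0 in C3 and 2.03 in C5, and C5 listed 2664 rows at 0 against 0 in C2 and C3. Differences were tested with limma on log2(CPM + 1) over the 27255 rows with a mean above 1 CPM in a group, and a row was called where the log2 fold change passed 2 in size and the FDR, adjusted over all these rows by the Benjamini-Hochberg method, was under 0.05. SE is the standard error of a log2 fold change. Fold changes on this scale understate the change of low rows. In the same fit the median of all rows was -1.02, and it was -0.29 after TMM rescaling, -0.22 after quantile normalization and 0.03 after median centring.

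The 14 rows split into a set that was high in every cryopreserved sample and a larger set that was not. *jun*, *FOS*, *fosb* and *atf4* rose, with mean levels in cryopreserved sperm between 11.1 and 33.6 times those in fresh-frozen sperm. These 4 of 14 rows were called higher, where 1.54% of all rows tested were. The first *junb* row had a mean in cryopreserved sperm 26.5 times that in fresh-frozen sperm, but its FDR from limma was 0.0595. None of the 14 rows was called lower in the limma fit, where 0% of all rows were. With edgeR at the same thresholds, the study reported downregulated as well as upregulated genes, and it listed *atf4* among the upregulated ones. The absence of rows called lower therefore belongs to this limma fit. At an unadjusted p below 0.05 in limma, 5 of the 14 were higher and 0 lower, where 6.89% of all rows were higher and 11.3% lower. All 5 also had a log2 fold change above 2, where 5.73% of all rows passed both limits upward and 9.36% downward. A log2 fold change above 0 was found in 7 of the 14 rows and in 25% of all rows. It was above 2 in 5 rows (6.06% of all rows) and below -2 in 2 rows, *fosl1* and *fosl2* (19.6% of all rows). The median log2 fold change of the 14 was -0.07. The members were chosen with earlier results of these data known, so the count is a description of these rows. All 14 had a fresh-frozen mean above 1 CPM, so none entered the test through its cryopreserved level.

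**Figure D1:**
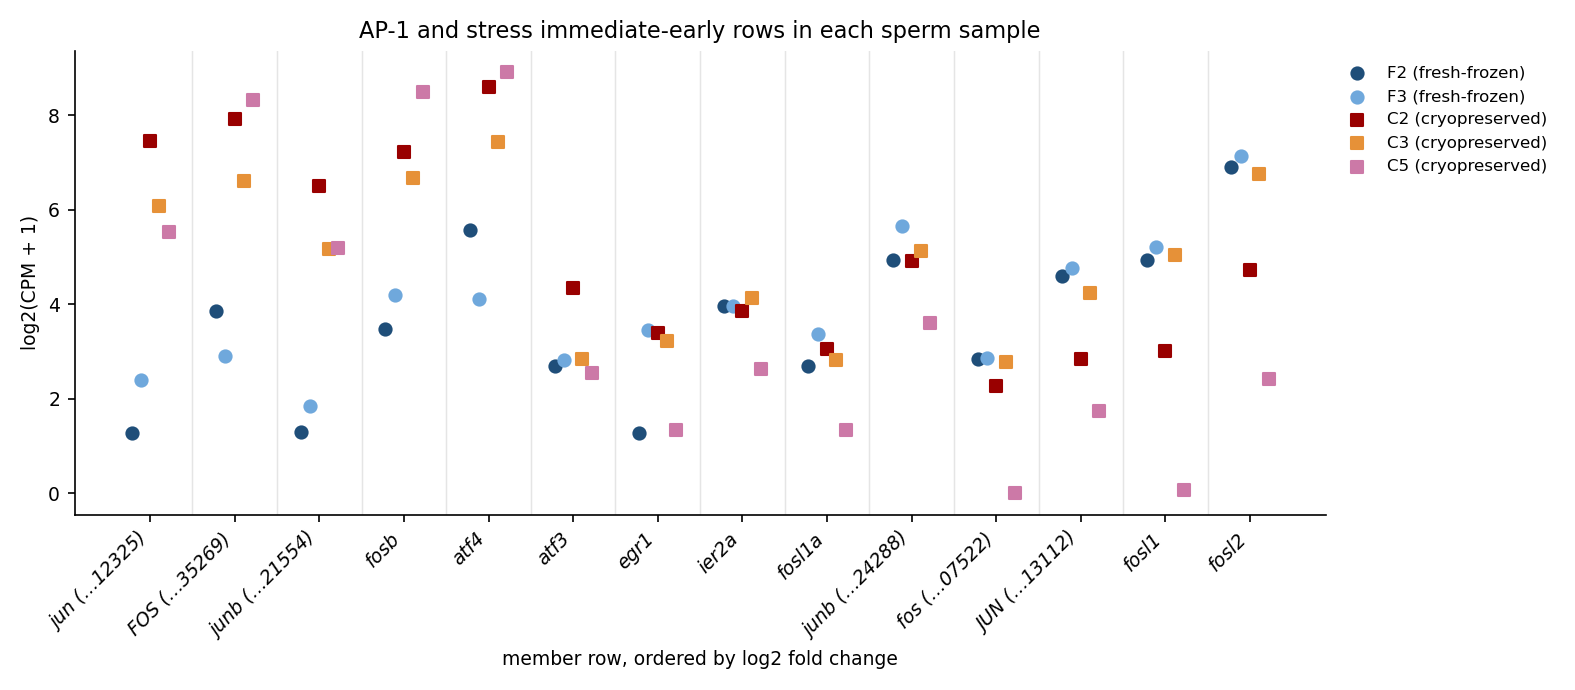
Level of each of the 14 rows in each sample, as log2(CPM + 1) on the y axis, with rows along the x axis ordered by log2 fold change. Circles are fresh-frozen samples and squares cryopreserved samples. In the 5 rows at the left every square lies above both circles, and in the other 9 rows no such upward gap is seen.

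JUN family. *jun*, a row named for c-Jun, the AP-1 subunit after which the family is named, had 1.44 CPM in F2 and 4.26 in F3. In cryopreserved sperm it had 175 CPM in C2, 66.9 in C3 and 45.5 in C5. The lowest cryopreserved sample was thus 10.7 times the highest fresh-frozen one, and the groups did not overlap. Such a gap upward was present in 5 of the 14 rows and in 13.6% of all rows. The means of *jun* were 2.85 ± 1.99 CPM (SD, n = 2) and 95.7 ± 69.2 CPM (SD, n = 3), and the log2 fold change was 4.52 (SE 0.94, limma FDR 0.0373). By log2 fold change it ranked 113 among all rows tested. Its fresh-frozen values were low, which makes the ratios to them uncertain. The runs of C2, sequenced as technical replicates, gave 188 and 161 CPM.

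*JUN*, the other row of this name, went the other way by its values. It had 23.3 CPM in F2 and 26.4 in F3, then 6.13 in C2, 17.8 in C3 and 2.37 in C5. Every cryopreserved sample was below both fresh-frozen ones, which holds for 3 of the 14 rows and for 41.7% of all rows. It was not called, at a log2 fold change of -1.75 (SE 1.03, limma FDR 0.288).

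JUNB is a JUN family protein that in mammals often opposes c-Jun at shared sites. The first *junb* row, AUIFUG00000021554, had 1.45 CPM in F2 and 2.59 in F3. It had 89.99 CPM in C2, 35.0 in C3 and 35.4 in C5. As in *jun*, C2 was the highest sample, and C3 and C5 were almost level. Its log2 fold change was 4.05 (SE 0.94, limma FDR 0.0595), just outside the threshold. With the male as a replicate block it was 4.27 (limma FDR 9.35e-06), but this fit rests on males 2 and 3 and leaves 1 residual degree of freedom, so its FDR is set by the prior. Over the 16 alternative fits the FDR of this row from limma ranged from 9.35e-06 to 0.498, and it was called in 6 of them.

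The second *junb* row, AUIFUG00000024288, had 29.5 CPM in F2, 49.8 in F3, 29.1 in C2, 34.04 in C3 and 11.2 in C5. The groups overlapped, with C2 and F2 at almost the same level and C5 below the rest. The log2 fold change was -0.75 (SE 0.87, limma FDR 0.554) and turned positive after TMM rescaling, median centring and quantile normalization.

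**Figure D2:**
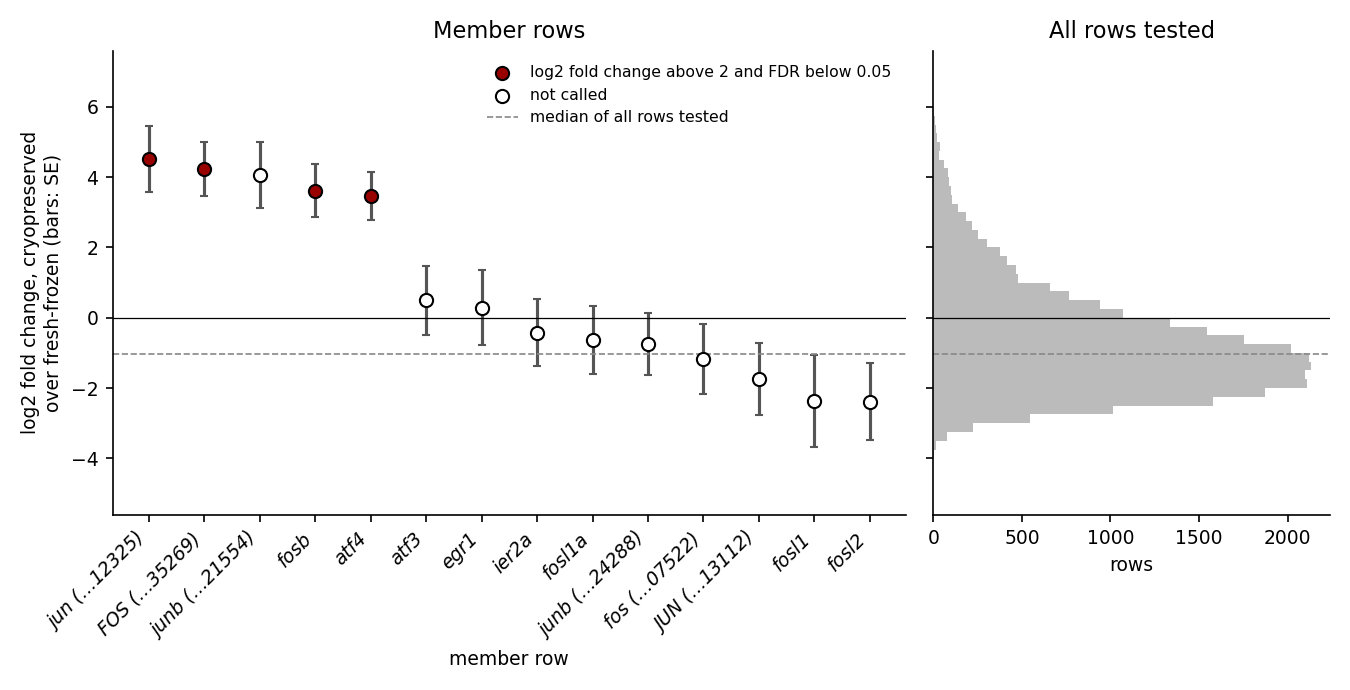
Log2 fold change of each of the 14 rows on the y axis (left panel, points with standard error bars, filled where the row was called) beside the distribution of the log2 fold changes of all 27255 rows tested (right panel, number of rows on the x axis). The dashed line is the median of all rows at -1.02, and the 5 rows at the left of the panel lie in the upper tail.

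FOS family. *FOS*, the row named for c-Fos, the classic partner of c-Jun, had 13.5 CPM in F2 and 6.48 in F3. In cryopreserved sperm it had 242 CPM in C2, 96.5 in C3 and 320.3 in C5. Here C5 was the highest sample and C3 the lowest of the cryopreserved ones, still 7.15 times the higher fresh-frozen value. The means were 9.99 ± 4.95 CPM (SD, n = 2) and 219.6 ± 114 CPM (SD, n = 3). The log2 fold change was 4.24 (SE 0.78, limma FDR 0.0207).

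*fosb*, whose product in mammals also pairs with JUN proteins, had 10.2 CPM in F2 and 17.3 in F3. It had 149 CPM in C2, 101 in C3 and 357 in C5, the same order of cryopreserved samples as in *FOS*. On the log2 scale the difference was 3.62 (SE 0.76, limma FDR 0.0390).

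*fos*, the row with the lower-case name, was a low row in every library. It had 6.19 CPM in F2, 6.30 in F3, 3.82 in C2 and 5.87 in C3, and was listed at 0 in C5. C3 was close to the fresh-frozen samples, and the log2 fold change was -1.17 (SE 0.995, limma FDR 0.420).

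*fosl1* and *fosl2* encode the FOS-related antigens FRA-1 and FRA-2. *fosl2* had 119 and 139.8 CPM in F2 and F3, 25.6 in C2, 107 in C3 and 4.36 in C5. All cryopreserved samples were below the fresh-frozen ones, but C3 by little and C5 by far. The log2 fold change was -2.39 (SE 1.09, limma FDR 0.265), with an unadjusted p of 0.05001. *fosl1* had 29.9 and 36.2 CPM in F2 and F3, 7.11 in C2, 32.0 in C3 and 0.0481 in C5. Since C3 lay between F2 and F3, the groups overlapped, and the log2 fold change of -2.37 (SE 1.32, limma FDR 0.277) rested on C2 and C5. Without C3, both were called lower, with log2 fold changes of -3.44 for *fosl2* (limma FDR 0.00554) and -3.54 for *fosl1* (limma FDR 0.0214), and so were 6965 of all rows. *fosl1a* was low throughout, between 1.54 CPM in C5 and 9.37 CPM in F3, with overlapping groups and a log2 fold change of -0.63 (SE 0.97).

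ATF and other stress factors. *atf4*, the bZIP effector of the integrated stress response, had 46.3 CPM in F2 and 16.3 in F3. It had 385 CPM in C2, 172 in C3 and 483 in C5, again with C5 highest and C3 lowest among the cryopreserved samples. The lowest cryopreserved sample was 3.71 times the highest fresh-frozen one, a smaller gap than in *jun* or *FOS*. The fresh-frozen samples differed from each other more than in the other called rows, with F3 minus F2 at -1.45 on the log2(CPM + 1) scale. The log2 fold change was 3.48 (SE 0.69, limma FDR 0.0288).

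*atf3*, a stress-induced bZIP factor that can repress transcription, did not show this pattern in CPM. It had 5.46 CPM in F2, 6.07 in F3, 19.4 in C2, 6.22 in C3 and 4.88 in C5. Only C2 stood out, and its runs gave 12.8 and 25.9 CPM, a wider technical difference than in any called row. On the log2 scale the difference was 0.50 (SE 0.99, limma FDR 0.734).

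*egr1*, a zinc finger factor and a standard immediate-early gene, had 1.44 CPM in F2 but 9.92 in F3, so that the fresh-frozen samples alone spanned nearly the whole range. Cryopreserved samples C2, C3 and C5 had 9.54, 8.32 and 1.53 CPM, with a log2 fold change of 0.29 (SE 1.06, limma FDR 0.858). *ier2a*, an immediate-early gene for a nuclear protein, had 14.6 CPM in F2, 14.7 in F3, 13.4 in C2, 16.6 in C3 and 5.22 in C5. Apart from C5, its samples were within a narrow band, and the log2 fold change was -0.43 (SE 0.96). Neither row was called in any of the 16 alternative fits.

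Copies within a library. The ratio of a pair of rows in the same library does not change when a library is rescaled as a whole, apart from the pseudocount of 1. It was taken for the 4 pairs of rows that share a name apart from case and a final a. *jun* minus *JUN* was -3.32 and -2.38 on the log2(CPM + 1) scale in F2 and F3, against 4.62, 1.85 and 3.79 in C2, C3 and C5. In words, the first copy had a lower CPM than the second in each fresh-frozen library and a higher one in each cryopreserved library, and since CPM is not divided by length only the shift between libraries is compared. The first *junb* row minus the second was -3.64 and -3.82 in F2 and F3, and 1.60, 0.04 and 1.58 in C2, C3 and C5. *FOS* minus *fos* was 1.01 and 0.04 in the fresh-frozen libraries, and 5.66, 3.83 and 8.33 in C2, C3 and C5, where *fos* was listed at 0 in C5. For these 3 pairs the groups did not overlap, with an exact two-sided permutation p of 0.1 each, the smallest that 2 samples against 3 allow (0.133 adjusted over 4 pairs by the Benjamini-Hochberg method). In each of these pairs the first row alone was already above in every cryopreserved sample. The share of other pairs of the table whose groups do not overlap was not counted. For *fosl1* minus *fosl1a* they overlapped (exact two-sided permutation p = 0.3, adjusted p = 0.3).

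Differences of this size between copies were rare in the table. Of 1159 names carried by exactly 2 rows tested, 3 (0.259%) differed between their copies by as much as *jun* or more in log2 fold change, 7 (0.604%) by as much as *fos* and 15 (1.29%) by as much as *junb*. The median absolute difference was 1.01. The counts include the member pairs themselves. By log2 fold change *jun*, *FOS* and the first *junb* row already ranked 113, 178 and 236 among all rows tested. A large difference from a second row follows largely from this, so the shares are not a separate result. Reads from near-identical copies could have been split or lost in the counting, which was not tested.

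**Figure D3:**
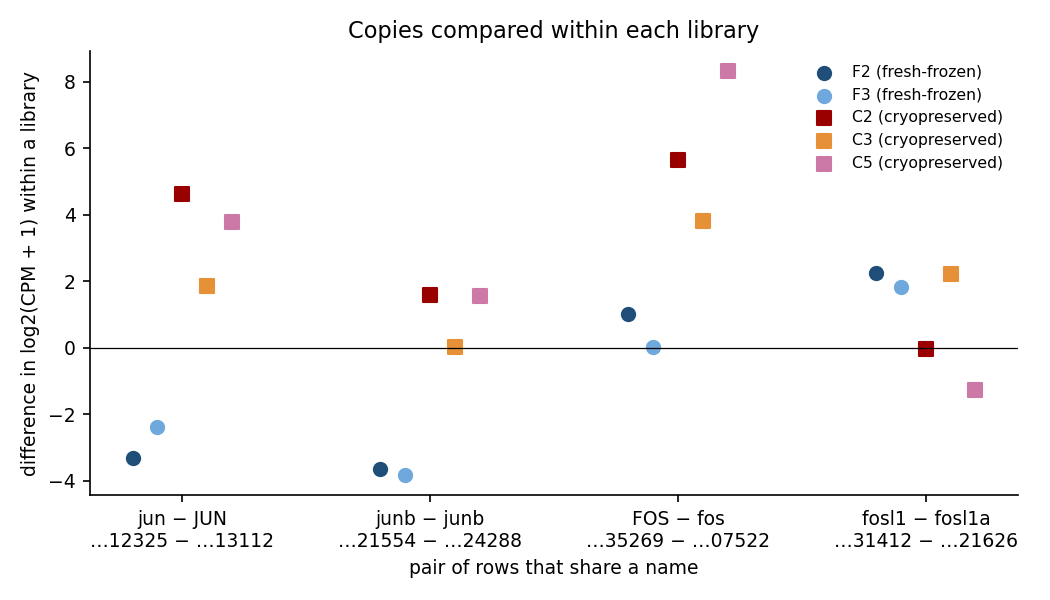
Difference in log2(CPM + 1) between the rows of a pair within each library (y axis) for the 4 pairs that share a name (x axis). Circles are fresh-frozen and squares cryopreserved libraries. For *jun* and *junb* the circles lie below 0 and the squares above it, for *FOS* and *fos* all squares lie above both circles, and for *fosl1* the groups overlap.

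Position within the library. Ranking each library's rows by CPM gives a position that no rescaling of the library changes. *jun* stood at percentile 8.47 in F2 and 21.8 in F3, and at 96.5, 84.4 and 87.3 in C2, C3 and C5. The first *junb* row stood at 9.12 and 12.9, and at 92.3, 70.5 and 85.2. By CPM, which is not divided by gene length, these rows thus went from among the lowest of the library to well above its middle. A position also depends on the other rows of its library. Rows above 1 CPM numbered 25937 in F2, 26593 in F3, 25502 in C2 and 25349 in C3, but 16994 in C5. *FOS* stood at 47.2 and 30.2 and moved to 97.7, 90.7 and 97.6, and *fosb* stood at 40.8 and 52.6 and moved to 95.6, 91.4 and 97.9. *atf4* was already in the upper part of the fresh-frozen libraries, at 75.4 and 51.1, and stood at 98.8, 96.9 and 98.5 in the cryopreserved ones.

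Positions of the other 9 rows were mixed. *atf3* stood at 28.8 and 28.9 in F2 and F3 and at 67.0, 32.1 and 63.1 in C2, C3 and C5, above both fresh-frozen positions in each, though C3 by little. *egr1* stood at 8.04 in F2 and 39.7 in F3, and at 49.96, 37.3 and 45.99 in the cryopreserved libraries, so that C3 lay below F3. *fosl2* stood at percentiles 92.9 and 95.1 in F2 and F3, at 73.3 in C2 and 61.4 in C5, but at 92.2 in C3. *ier2a*, at 48.6 in each fresh-frozen library, stood at 58.2, 52.3 and 64.0 in C2, C3 and C5, so that its position was higher although its CPM in C5 was lower.

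**Figure D4:**
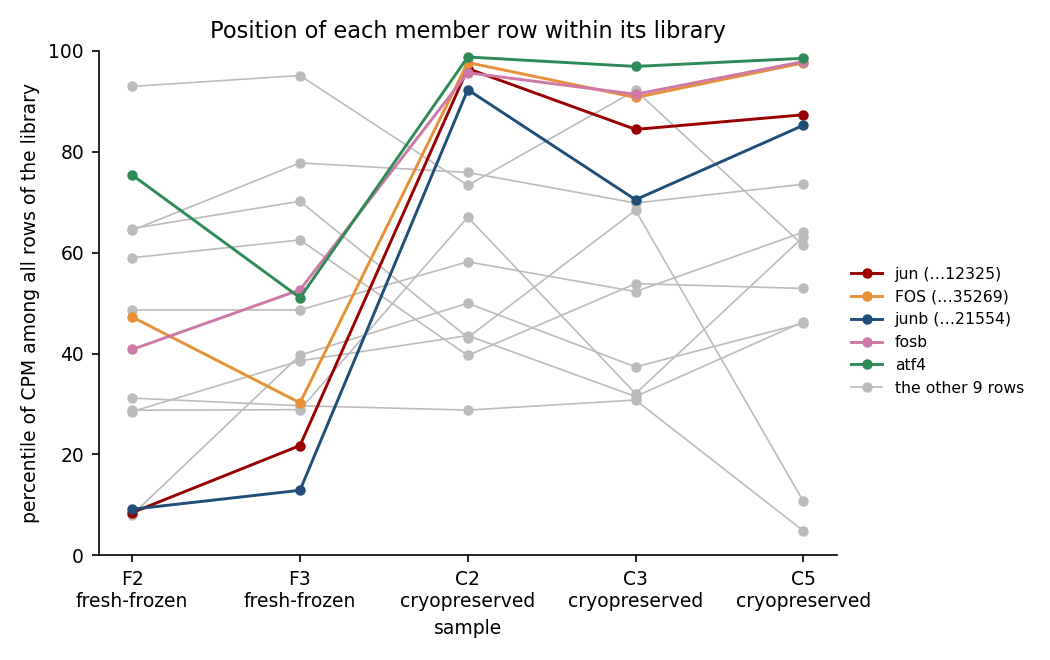
Percentile of each of the 14 rows by CPM among all rows of the same library (y axis) in the 5 samples (x axis). Coloured lines are *jun*, *FOS*, the first *junb* row, *fosb* and *atf4*, all at percentile 70.5 or above in every cryopreserved library. Grey lines are the other 9 rows. Lines join values of a row and carry no time order.

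By male. Males 2 and 3 gave a sample to each group. In male 2, C2 minus F2 was 6.17 for *jun*, 5.22 for the first *junb* row, 4.07 for *FOS*, 3.74 for *fosb* and 3.03 for *atf4* on the log2(CPM + 1) scale, where the median of all rows was -0.71. In male 3, C3 minus F3 was 3.69, 3.33, 3.70, 2.48 and 3.32 for the same rows, where the median of all rows was -0.24. All 5 rows were higher in the cryopreserved sample of each male. This follows from every cryopreserved sample being above both fresh-frozen ones in these rows, so it is not a separate result. In male 2, 0.0624% of all rows had a greater difference than *jun*, and in male 3 it was 0.448%. For *atf4* the shares were 3.76% and 0.745%. C5, set against the mean of F2 and F3, gave 3.70 for *jun*, 3.62 for *junb*, 4.95 for *FOS*, 4.65 for *fosb* and 4.08 for *atf4*, where the median of all rows was -1.93.

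The cryopreserved samples were ordered differently in these rows. *jun* was highest in C2 and lowest in C5, whereas *FOS*, *fosb* and *atf4* were highest in C5 and lowest in C3. Germ cell markers, among them the axonemal genes *tekt1* and *spag6*, summed to 722 and 674 CPM in F2 and F3. In C2, C3 and C5 they summed to 5938, 3124 and 11239.6, which is the order of the cryopreserved samples in *FOS*, *fosb* and *atf4*. The largest part of these sums was *tekt1*, with 2526, 1280 and 5292 CPM. Not every germ cell row had this order, and the share of all rows with any such order of samples was not counted. *ddx4*, *sycp3* and *piwil2* were highest in C3, and *dazl* and *Tekt2* in C2. In 7 of the 12 germ cell rows the cryopreserved samples all exceeded both fresh-frozen ones, in 2, *dazl* and *piwil2*, they were all below, and none of the 12 was listed at 0. Over all rows the shares were 13.6% above and 41.7% below. Erythroid markers summed to 201 and 171 CPM in F2 and F3, and to 3361, 667 and 201 in C2, C3 and C5. Among the cryopreserved samples this is the order of *jun*, but C5 was level with F2 here. In C2 and C3 this sum rested mainly on *HBB*, a globin. *HBB* had 16.8 CPM in F2, 7.41 in F3, 2532 in C2, 389.9 in C3 and 91.5 in C5. It was the only one of the 5 erythroid rows with all cryopreserved samples above. *hbaa1*, another globin, was the 1 row with all of them below. Its values were 18.96 CPM in F2, 8.58 in F3, 8.56 in C2, 6.82 in C3 and 0.535 in C5.

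Of the other markers, those of leukocytes summed to between 499.8 and 558 CPM in fresh-frozen and between 403 and 532 in cryopreserved samples, with 2 of 9 rows above and 5 below in all cryopreserved samples and *spi1* at 0 in C5. Those of Sertoli and Leydig cells summed to between 251 and 289 CPM and between 15.6 and 202, with 1 of 10 rows above, 4 below and *inhbb* at 0 in C5, and those of fibroblasts and vessels to between 682 and 1251 and between 375 and 1075, with 0 of 9 rows above and 4 below. The part of other cells, of depth and of library composition in the change of the AP-1 rows was not tested. In bulk samples, fewer cells of a type and less RNA per cell cannot be told apart.

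Patterns most like *jun*. Over the 5 samples, the named rows nearest to *jun* in centred log2(CPM + 1), by Euclidean distance, were *MR1* (0.72), the first *junb* row (0.80), *mmab* (0.89), *TRIM2* (1.09) and *CX6B1* (1.14). The first *junb* row was thus the second nearest of all named rows. *MR1* (AUIFUG00000034379) had 8.73 CPM in F2, 14.3 in F3, 915 in C2, 344 in C3 and 159 in C5.

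Genes around AP-1. The counts of the 4 gene lists are read against all rows, of which 1.54% were called higher and 0% lower, and 6.89% were higher and 11.3% lower at an unadjusted p below 0.05 alone, and in lists of this size a call of 0 or 1 row is near that background. Of 35 rows of other bZIP partners, the proteins that can pair with JUN, FOS or ATF factors, 0 were called in limma in either direction, with 0 higher and 8 lower at an unadjusted p below 0.05, and their median log2 fold change was -0.79 against -1.02 for all rows. The rows of highest mean were *xbp1*, a factor of the unfolded protein response, with 82.3 CPM in F2, 74.5 in F3, 143 in C2, 66.9 in C3 and 123 in C5, and *ATF6*, a sensor of the same response, with a log2 fold change of -0.30 (SE 0.60).

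Of 43 rows of other immediate-early genes, such as the *egr*, *nr4a*, *klf* and *dusp* families, 0 were called in limma, with 2 higher and 5 lower at an unadjusted p below 0.05 and a median of -0.25. The rows of highest mean were *btg1*, an antiproliferative gene, at 0.20 (SE 0.59), and *csrnp1b* at -2.10 (SE 0.89, limma FDR 0.265). *btg2*, related to *btg1* and chosen here after its values were seen, had the highest fold change of the list. F2 and F3 had 5.46 and 4.65 CPM of it and C2, C3 and C5 had 78.3, 38.8 and 119.9, with a log2 fold change of 3.59 (SE 0.87, limma FDR 0.0724), and was not called. With the replicate block, 2 rows of this list were called higher, where 1136 of all 27255 rows tested were.

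Of 52 rows of the MAP kinase and SRF inputs, which in mammals phosphorylate JUN or drive transcription of *fos*, 1 was called higher and 0 lower in limma, with 3 higher and 10 lower at an unadjusted p below 0.05. The median was -1.39. The called row was *cops5*, a subunit of the COP9 signalosome first described in human as a binder of the JUN activation domain. It had 21.1 CPM in F2, 21.0 in F3, 329 in C2, 185 in C3 and 517 in C5, with the sample order of *FOS* and *atf4*. Its log2 fold change was 3.84 (SE 0.64, limma FDR 0.0128).

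Of 35 rows of the integrated stress response, with eIF2 kinases, eIF2B subunits and targets of ATF4, 0 were called in limma, with 3 higher and 5 lower at an unadjusted p below 0.05 and a median of -0.49. The rows of highest mean were copies of *slc3a2*, the heavy chain of amino acid exchangers. *slc3a2a* had 116 CPM in F2, 87.2 in F3, 1156 in C2, 403 in C3 and 98.7 in C5, and *slc3a2b* had 259.8 and 269 against 168, 243 and 20.9. *eif2b5*, a subunit of the exchange factor eIF2B and chosen after its values were seen, had the highest fold change of this list, at 3.41 (SE 0.83, limma FDR 0.0754). *ddit3*, which encodes CHOP, a bZIP target of ATF4, is counted among the other bZIP partners. It was also named after its values were seen. F2 and F3 had 166 and 133 CPM of it, and C2, C3 and C5 had 34.3, 104.9 and 6.02. By its values this was the opposite of *atf4* (log2 fold change -2.33, SE 1.02, limma FDR 0.265). Every cryopreserved sample was below both fresh-frozen ones, which holds for 41.7% of all rows. A log2 fold change below -2 was found in 19.6% of all rows. With the replicate block, 2 rows of the integrated stress response list were called higher, where 1136 of all 27255 rows tested were.

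The calls rested on few samples. *jun*, *FOS*, *fosb* and *atf4* kept log2 fold changes above 2 in each of the 16 alternative fits, but their FDR from limma went up to 0.449. No member was called without C2, where no row of the table was, and 2 were called without F2 (*FOS* and *atf4*), 1 without F3 (*jun*) and 5 higher without C3 or without C5.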

How the data were processed

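The authors sequenced poly(A)-selected RNA, trimmed paired-end reads with Trimmomatic 0.39, aligned them to blue catfish with TopHat2 2.1.1, obtained gene counts from HTSeq 1.0 and compared groups in edgeR. The genome build is not given in the sources used here, so coordinates were not used. The deposited sample values carry the name RPKM, but their column sums lie between 992942 and 997458, so they were read as CPM. A deposited column of average log2 CPM served only to check this (Spearman's ρ with the mean of the sample columns 1.00 across rows). The study's supplement lists sequenced reads and mapping rates per library, which were not used here, and since the values were deposited without counts no counting error is given. F5 was not analysed here.

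The technical replicates of C2 were averaged into 1 sample. Cryopreserved and fresh-frozen samples were compared on log2(CPM + 1) by limma 3.58.1, run in R 4.3.3 with its prior variance trended on level, since a count test needs counts. The whole table was fitted, FDRs were adjusted over all rows tested, and the thresholds are the study's. The fit was tested on simulated data in which all libraries shared the same mean levels apart from the changed rows. The libraries here were not alike, so the simulation does not show how the fit behaves on them. Tables were made with pandas 2.3.3, numpy 2.4.6 and Python 3.11.15, exact tests with scipy 1.17.1, and figures with matplotlib 3.10.9.

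By the study's account the sample number is the male, which pairs F2 with C2 and F3 with C3. The difference between these males in fresh-frozen sperm had a correlation of -0.02 across rows with that in cryopreserved sperm, a single pair of differences. A fit with the male as replicate block was an alternative.

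Named were all member rows, *gapdh* as the study's reference gene, the 5 named rows nearest to *jun*, and from each gene list the called rows (at most 4 per direction) or else the 2 of highest mean. Outside this rule, *btg2*, *eif2b5*, *ddit3*, *trib3*, *CHAC1*, *june* and the single marker genes were named after their values were seen. Members, lists and tests were chosen with earlier results of these data known. Samples of a group are different males. The limma p-values combine the spread between these few males with a prior variance from all rows (8.59 prior degrees of freedom in the main fit). The main fit does not use the pairing by male.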

Additional observations from a re-analysis of the deposited data

How the results depend on the processing

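Among alternatives that kept all samples, members called higher fell from 4 to 0 with a pseudocount of 0.1, a constant limma prior or median centring, and to 2 over rows with a mean above 5 CPM (*FOS* and *atf4*). They were 5 with a pseudocount of 5, TMM rescaling, quantile normalization or the male as a replicate block, where the first *junb* row was added. With each sample left out they ranged from 0 to 5, and members called lower from 0 to 2. Over all rows, 421 were called higher, against 156 and 670 with pseudocounts of 0.1 and 5, 0 with median centring or a constant prior, 1420 with quantile normalization, 1136 with the replicate block, and 0 to 1840 with a sample left out. The 0 called lower became 4 with a pseudocount of 5, 100 with quantile normalization, 120 with the replicate block, 2 and 1 with each technical replicate of C2 alone, and 0 to 6965 with a sample left out. The cause of these moves was not tested. The replicate block changed no other call of a member than that of *junb*.

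Some uncalled rows changed sign. *ier2a*, at -0.43, became 0.51, 0.62 and 0.57 with TMM rescaling, median centring and quantile normalization, and 0.026 with the replicate block, and ranged from -0.72 to 0.026 (without C5) with a sample left out. *fosl1a*, at -0.63, became 0.19, 0.42 and 0.38 and the second *junb* row, at -0.75, became 0.24, 0.30 and 0.12 under the same 3 scalings. With a sample left out, *atf3*, at 0.50, ranged from -0.053 (without C2) to 0.84, and *egr1*, at 0.29, from -0.80 (without F2) to 1.37, with -0.086 without C2. Leaving out F2 or F3 leaves a lone fresh-frozen sample, which is assumed to vary like the others. Low rows such as *fos* and *egr1*, under 12 CPM in every sample, are among those that depth limits most. In fresh-frozen sperm *jun* and the first *junb* row had still lower means, 2.85 and 2.02 CPM, against 6.24 for *fos* and 5.68 for *egr1*. The size of their fold changes therefore rests on a low baseline.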

Other observations

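*june* (AUIFUG00000018599), a further JUN-related name that the rule leaves out and that was chosen after its values were seen, had 64.8 CPM in F2, 104 in F3, 7.79 in C2, 60.6 in C3 and 1.86 in C5. C3 was just below F2, and the row was not called (log2 fold change -2.85, SE 1.19, limma FDR 0.265). *gapdh* (AUIFUG00000007949), the study's reference gene, had the same order of samples, with 121 CPM in F2, 142 in F3, 20.8 in C2, 75.3 in C3 and 1.37 in C5. It was not called either (log2 fold change -3.06, SE 1.23, limma FDR 0.265). *fosl2* and *JUN* had the order of *june* and *gapdh* too, with C3 nearest to fresh-frozen sperm and C5 farthest. The median CPM of the cryopreserved libraries was likewise highest in C3 and lowest in C5. The share of all rows with this order was not counted.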
